A study of Mus musculus with 12 samples.

Results

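The genes described here are the 4 Notch receptor genes *Notch1* to *Notch4*, the ligand genes *Jag1* and *Dll1*, and the effector genes *Hes1*, *Hey1*, *Hey2* and *Heyl*. These 10 genes, out of 56980 in the count matrix, were found by matching each row's Ensembl identifier to its gene symbol. They were measured by bulk RNA-Seq in W-20 cells, a murine bone marrow stromal cell (BMSC) line that can be differentiated into osteoblasts and adipocytes. The 12 libraries form 4 groups of 3. WT cells (titled W20) and Y428F cells, a stable W-20 line with plasmid-borne YAP (a transcriptional coactivator) in which a tyrosine is changed to phenylalanine, were each exposed for 2 hours to 50 nM parathyroid hormone (PTH) or to vehicle (PBS). No strain or age applies to these cultured cells, and no other agent is named for any group.

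Several points limit the Y428F cells as a model. Their libraries carry Y428F in the title, whereas the genotype given for them is WT. The study's methods describe stable lines that express Flag-tagged YAP from plasmids and were grown from clones resistant to puromycin, with Y428F alone or together with a serine-to-alanine substitution that stabilizes YAP. The study's text names the line with both substitutions as the one sequenced, whereas the titles carry Y428F only. No line with unchanged YAP made in the same way is among the 12 libraries, so an effect of the mutation cannot be told apart from other differences of the Y428F line. The study speaks of independent experiments in general, but no source used here ties each library to a separate culture, so p-values measure the spread between these samples, which may be technical.

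Notch receptors are single-pass membrane proteins that are activated by ligands of the Jagged and Delta-like families on a neighboring cell. Ligand binding lets ADAM proteases and then γ-secretase cut the receptor, which frees its intracellular domain to enter the nucleus and to turn on genes bound by RBPJ. The best known of these genes encode the HES and HEY basic helix-loop-helix repressors. In bone marrow, Notch signaling is known for holding mesenchymal progenitors back from osteoblast differentiation, and *Jag1* is a known PTH-responsive gene of osteoblast-lineage cells.

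Library totals ranged from 17127897 to 19057319 counts (median 17740980). Values are in CPM (counts relative to the TMM-scaled library total), as mean ± SD over the 3 libraries of a group, and 1 count was worth 0.0506 to 0.0615 CPM. A count of 0 allows a level of up to 0.152 to 0.185 CPM (3 counts), which covers counting error only. Genes were compared with edgeR's quasi-likelihood test in a single fit of all 12 libraries, with Benjamini-Hochberg adjustment over 17691 genes, and a gene was called at an adjusted p under 0.05. Of the 10 genes, 9 passed the filter of at least 10 counts in total. *Heyl* had 1 count in 1 vehicle library of WT cells and 0 in the other 11 libraries, and was not tested.

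The line was first checked against its cell type. *Col1a2*, the most abundant gene of the bone marrow stromal markers, was at 12829 ± 932 CPM in WT cells and 7745 ± 285 CPM in Y428F cells with vehicle. The 10 stromal markers summed to 20603 to 24422 CPM in WT cells and to 14245 to 15309 CPM in Y428F cells with vehicle, and to 20452 to 23547 and 10688 to 13452 CPM with PTH. All 9 stromal markers tested differed between the lines with vehicle, 7 lower and 2 higher in Y428F cells. Of all 17691 genes, 45.1% were called in this comparison (22.4% higher and 22.7% lower). *Thy1*, a defining marker of cultured BMSCs, had 0 counts in all 12 libraries, and the leptin receptor gene *Lepr* was at 0.143 ± 0.108 CPM in WT cells and 1.03 ± 0.0407 CPM in Y428F cells with vehicle. The pericyte genes *Kcnj8* and *Abcc9* had 0 counts throughout, whereas *Mcam*, a gene shared by stromal cells and pericytes, was at 182 ± 2.88 CPM in WT cells and 164 ± 4.34 CPM in Y428F cells with vehicle and rose with PTH in both (log2 fold change 0.20 and 0.21, adjusted p = 0.0139 and 0.0102). *Des*, the desmin gene of muscle cells and pericytes, went the other way between the lines, at 4.1 ± 0.8 CPM in WT cells and 8.07 ± 1.52 CPM in Y428F cells with vehicle (0.97, adjusted p = 6.75e-05), and was higher in Y428F cells with PTH as well (0.79, adjusted p = 0.000654). Of the 9 stromal markers tested, 2 were lower with PTH in each line and none was higher. The share of all genes called lower was 6.01% for WT and 5.78% for Y428F cells. The platelet-derived growth factor receptor gene *Pdgfra* fell in WT cells (-0.60, adjusted p = 0.000112) and Y428F cells (-0.73, adjusted p = 7.17e-05), *Pdgfrb* fell in WT cells (-0.27, adjusted p = 0.0496) and *Col1a1* fell in Y428F cells (-0.33, adjusted p = 0.0218). They moved with PTH in the same direction as *Notch3* below, and their part in that result was not tested.

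Endothelial and hematopoietic markers were low. The 8 endothelial markers summed to 2.84 to 4.34 CPM in WT cells and to 9.2 to 11.2 CPM in Y428F cells with vehicle. Their most abundant gene in Y428F cells was *Cdh5*, the endothelial cadherin gene, at 7.95 ± 0.865 CPM against 0.81 ± 0.282 CPM in WT cells, while *Pecam1*, another endothelial gene, was at 0.247 ± 0.0488 and 0.0718 ± 0.0804 CPM. The most abundant in WT cells was *Vwf*, the von Willebrand factor gene, at 2.37 ± 0.41 CPM against 1.18 ± 0.142 CPM in Y428F cells. Of the 5 endothelial markers tested, *Cdh5* was higher and *Vwf* lower in Y428F cells under either treatment. Between the lines, 45.1% of all genes were called with vehicle and 45.7% with PTH. The 7 hematopoietic markers summed to 1.59 to 1.8 CPM in WT cells and to 3.08 to 3.94 CPM in Y428F cells with vehicle, with *Ptprc* at 0.853 ± 0.136 and 2.79 ± 0.279 CPM. Of the 4 hematopoietic markers tested, *Ptprc* alone was called between the lines with vehicle (1.70, adjusted p = 2.37e-05), and of the others *Cd68* had a log2 fold change of 0.82, *Csf1r* of -0.98 and *Itgam* of -2.61. *Cdh5*, *Vwf* and *Ptprc* thus differed between the lines as did the Notch genes below, and their part in those differences was not tested. In bulk RNA, fewer cells of a type and less RNA per cell cannot be told apart.

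*Notch2* was by far the leading receptor gene and *Notch3* followed it. Per kilobase of the canonical transcript, *Notch2* stood at 18.0 ± 2.8 CPM and *Notch3* at 6.24 ± 0.724 CPM in WT cells with vehicle. *Jag1* came next at 0.643 ± 0.148 CPM per kilobase, ahead of *Notch4* at 0.2 ± 0.0222. *Hes1* (0.146 ± 0.132) and *Dll1* (0.125 ± 0.0675) followed. *Notch1* (0.0516 ± 0.011), *Hey1* (0.0415 ± 0.0272), *Hey2* (0.0139 ± 0.024) and *Heyl* (0.00393 ± 0.00681) closed the order, and from *Notch4* down no neighbors in the order differed beyond their spread.

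The order below *Notch3* differed in Y428F cells with PTH. There *Hes1* came directly after *Notch3*, at 0.788 ± 0.169 CPM per kilobase, above *Notch4* at 0.356 ± 0.0275 and *Jag1* at 0.31 ± 0.0459, and those 2 lay within their spread of each other. The summed receptor level per kilobase was between 72.4% and 85.1% *Notch2* in the 12 libraries. *Notch3* made up 24.4% to 26.4% of it in WT cells with vehicle, 21.7% to 23.8% in WT cells with PTH, 16.7% to 18.5% in Y428F cells with vehicle and 12.2% to 14.7% in Y428F cells with PTH. *Notch1* never exceeded 0.411% of the receptor level.

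**Figure D1:**
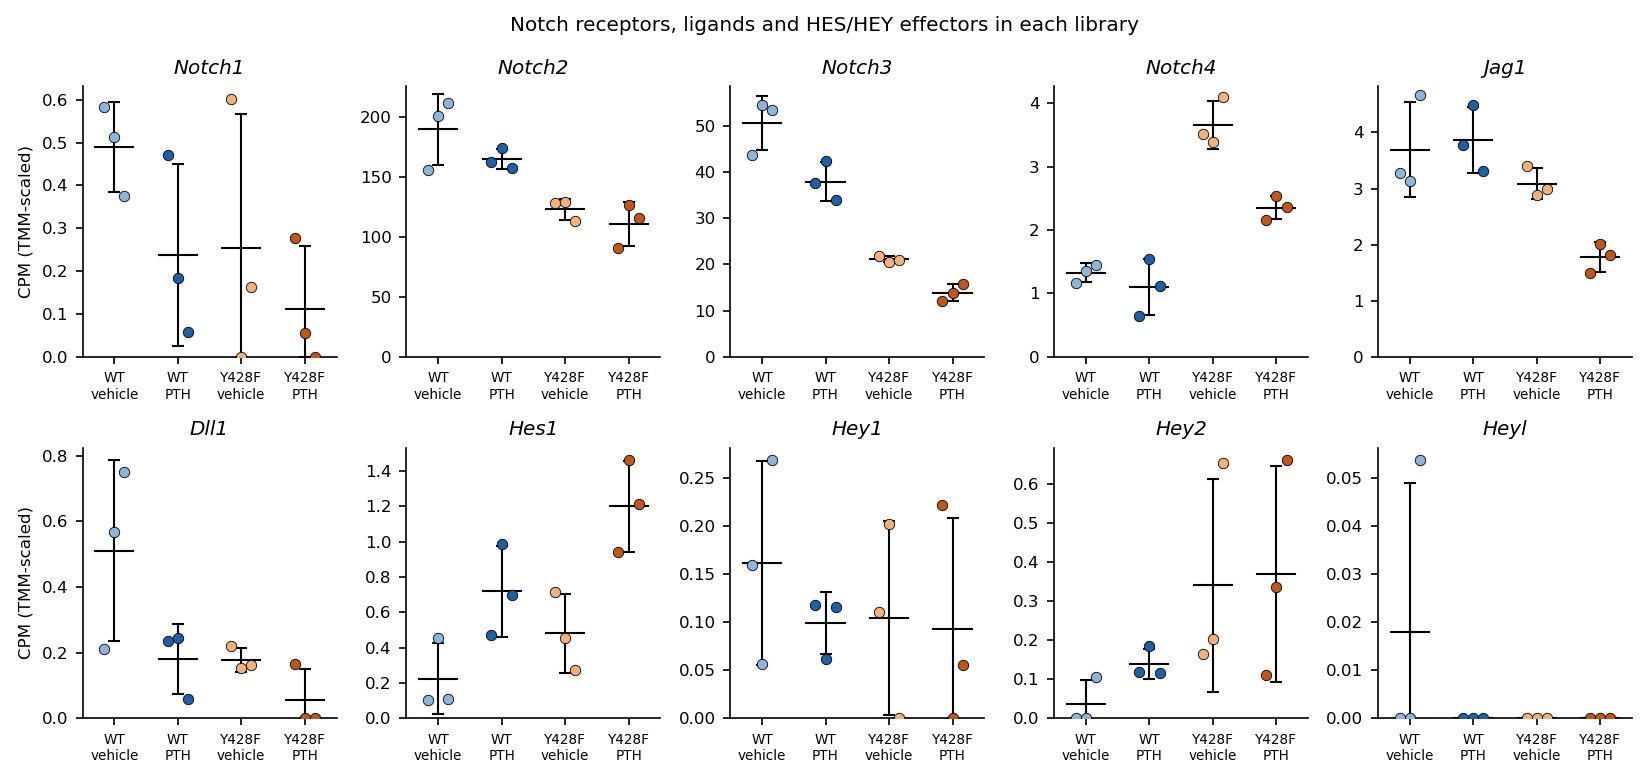
Expression (CPM, linear axes that start at 0 and differ between panels) of the 10 genes in the 12 libraries. Each point is a library, the horizontal line is the group mean and the bar is ± SD (n = 3, truncated at 0). With PTH, *Notch3* steps down in WT cells from 50.5 to 37.9 CPM and in Y428F cells from 21.1 to 13.9 CPM. *Hes1*, which was called in neither line, has means of 0.223 and 0.718 CPM in WT cells and 0.48 and 1.20 CPM in Y428F cells.

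*Notch3* and *Jag1* were called in a PTH comparison and *Hes1* came close to it in both, so the 250 bases upstream of the transcription starts of these 3 genes are shown. *Hes1* was added after its values were seen. The sequences were read from GRCm39 at the start of the canonical GENCODE vM39 transcript, and none of the 3 windows overlapped an annotated exon. The *Notch3* window is chr17:32385894-32386143 (minus strand), the *Jag1* window is chr2:136958694-136958943 (minus strand) and the *Hes1* window is chr16:29883877-29884126 (plus strand). Each is written 5′ to 3′ along the gene. Capitals mark matches on either strand to TGGGAA (the core of the RBPJ site), TGACG (a half-site of the cAMP response element, CRE) and GGAATG (the core of the TEAD site, through which YAP acts).
Notch3: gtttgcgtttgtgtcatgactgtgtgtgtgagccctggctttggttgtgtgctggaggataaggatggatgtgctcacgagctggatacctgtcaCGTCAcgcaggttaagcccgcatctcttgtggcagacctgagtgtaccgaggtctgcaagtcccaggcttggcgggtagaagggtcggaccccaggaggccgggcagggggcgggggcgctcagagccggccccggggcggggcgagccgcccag
Jag1: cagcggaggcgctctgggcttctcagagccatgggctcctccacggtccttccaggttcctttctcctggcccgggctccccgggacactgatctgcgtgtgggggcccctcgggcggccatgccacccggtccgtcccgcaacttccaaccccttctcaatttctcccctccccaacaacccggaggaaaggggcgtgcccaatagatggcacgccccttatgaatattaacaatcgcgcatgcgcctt
Hes1: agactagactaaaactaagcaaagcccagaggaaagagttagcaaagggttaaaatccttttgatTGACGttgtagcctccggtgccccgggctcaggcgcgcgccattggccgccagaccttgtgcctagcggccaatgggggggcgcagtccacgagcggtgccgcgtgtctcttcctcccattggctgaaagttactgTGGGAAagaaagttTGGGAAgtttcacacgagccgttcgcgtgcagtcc

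*Hes1* held a pair of TGGGAA matches on the gene's strand, at bases -49 to -44 and -35 to -30 from the transcription start, 14 bases apart from start to start. Among 21602 promoters of protein-coding genes, 22.8% had at least 1 such match in a window of the same length, and among the 10 genes *Hes1*, *Hey1* and *Hey2* did. The half-site TGACG, present in 18.0% of all windows, stood at -185 to -181 in *Hes1* and, on the opposite strand, at -155 to -151 in *Notch3*. The full CRE, TGACGTCA, which contains the half-site on both strands, was in none of the 10 windows and in 1.69% of all. GGAATG was in the windows of *Notch1*, *Notch4*, *Dll1* and *Hey2* and in 12.1% of all, and in *Hey2* it overlapped the TGGGAA match. CACNAG, the N box bound by HES proteins, was in 6 of the 10 windows, with 3 matches in *Hes1*, and in 36.4% of all. The *Jag1* window had no match to any of these letters. A match describes the letters only and does not show binding.

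The first comparison asked which of these genes changed when WT cells were exposed to PTH. Of the 9 tested, 1 was lower, *Notch3*, and none was higher, against 13.4% of all 17691 genes called (7.42% higher and 6.01% lower). By TMM scaling 1312 genes were higher and 1063 lower (55.2% of the calls higher), and by library totals alone 956 and 1608 (37.3%). The log2 fold changes of the 9 had a median of -0.28, against -0.02 over all genes tested.

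*Notch3* (ENSMUSG00000038146.9, chr17:32339794-32385893, minus strand) is a receptor best known from vascular smooth muscle and pericytes. The vehicle libraries of WT cells held 827, 956 and 993 counts and the PTH libraries 636, 689 and 582, so every PTH library was below every vehicle library, as for 13.2% of all genes tested. In CPM it went from 50.5 ± 5.85 to 37.9 ± 4.26, a log2 fold change of -0.41 ± 0.0976 (SE), or 1.33-fold lower (adjusted p = 0.00687). The call was kept in each of the 12 fits without 1 library, with an adjusted p between 0.000938 and 0.039. The lncRNA *Gm17276* overlaps exons of *Notch3* on the other strand but had at most 2 counts in a library.

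*Notch2* (ENSMUSG00000027878.12, chr3:97920800-98057677, plus strand), the receptor of most of the Notch mRNA here, was not called. It had 2959, 3539 and 3957 counts in the vehicle libraries against 2772, 2830 and 2714 in the PTH libraries, and the groups overlapped. The level went from 190 ± 29.6 to 165 ± 8.16 CPM, with a log2 fold change of -0.20 ± 0.103 (adjusted p = 0.232). It was called lower without vehicle library 1, with a log2 fold change of -0.31 (adjusted p = 0.0252), and also in all libraries when no filter on low counts was used (-0.20, adjusted p = 0.0176). Over all alternatives its adjusted p ranged from 0.0176 to 0.626.

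*Notch4* and *Notch1* were scarce. *Notch4*, a receptor of endothelial cells, had 22, 24 and 27 counts with vehicle and 11, 25 and 19 with PTH, and its groups overlapped (log2 fold change -0.28 ± 0.29, adjusted p = 0.63). *Notch1*, the receptor with the broadest known roles in development, had 11, 9 and 7 counts with vehicle and 8, 3 and 1 with PTH, a ratio of 0.486 with a 95% interval of 0.224 to 0.993 that covers counting error only. Its groups overlapped and it was not called (adjusted p = 0.542). The lncRNA *0610009E02Rik* shares 191 bases of exon with *Notch1* on the opposite strand and had 7.13 to 34.4 counts per library. Whether the reads were counted by strand is not stated, so *Notch1* values are uncertain.

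Neither ligand gene was called in WT cells by edgeR or by DESeq2, which gave no adjusted p for 1 of them, and 0 had an unadjusted p under 0.05 with edgeR. *Jag1* (ENSMUSG00000027276.8, chr2:136923373-136958693, minus strand), which encodes the ligand Jagged1, had 62, 55 and 87 counts with vehicle and 64, 73 and 57 with PTH, and the groups overlapped. Its level was 3.69 ± 0.849 CPM with vehicle and 3.86 ± 0.591 CPM with PTH, with a log2 fold change of 0.06 ± 0.198 (adjusted p = 0.904). *Dll1*, the gene of the ligand Delta-like 1, had 4, 10 and 14 counts with vehicle and 4, 4 and 1 with PTH. Its count ratio was 0.352 (95% interval 0.146 to 0.766, counting error only), but the groups overlapped and it was not called (adjusted p = 0.264).

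*Hes1* (ENSMUSG00000022528.9, chr16:29882134-29886643, plus strand), the HES repressor most widely induced by Notch, was low and just missed the threshold. In WT cells it had 2, 8 and 2 counts in the vehicle libraries against 8, 16 and 12 in the PTH libraries. In CPM it was at 0.223 ± 0.201 with vehicle and 0.718 ± 0.257 with PTH, and the lowest PTH library, at 0.472 CPM, lay just above the highest vehicle library, at 0.455 CPM. All PTH libraries lay above all vehicle libraries in this way for 13.2% of all genes tested. The log2 fold change was 1.68 ± 0.574 (adjusted p = 0.0589). Without vehicle library 2, the one with 8 counts, it was 2.68 (adjusted p = 0.0149, and 0.0149 to 0.206 over all alternatives for this line).

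The HEY genes were near the limit of detection in WT cells. *Hey1* had 3, 1 and 5 counts with vehicle and 2, 1 and 2 with PTH (adjusted p = 0.767). *Hey2* had 0, 0 and 2 counts with vehicle and 2, 3 and 2 with PTH, a ratio of 3.83 with an interval of 0.729 to 37.8 (adjusted p = 0.406). No effector gene was called in WT cells by edgeR or by DESeq2, which gave no adjusted p for the 3 tested, and 1 of them, *Hes1*, had an unadjusted p under 0.05 with edgeR.

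In Y428F cells the question was whether the same genes changed with PTH. Of the 9 tested, 2 were lower, *Notch3* and *Jag1*, and none was higher, against 12.4% of all genes called (6.61% higher and 5.78% lower). By TMM scaling 1170 genes were higher and 1022 lower (53.4% of the calls higher), and by library totals alone 888 and 1445 (38.1%). The median log2 fold change of the 9 was -0.60, against -0.01 over all genes.

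*Notch3* had 400, 407 and 382 counts with vehicle and 219, 248 and 286 with PTH, with no overlap, as for 15.4% of all genes tested in this direction. It went from 21.1 ± 0.701 to 13.9 ± 1.8 CPM, a log2 fold change of -0.60 ± 0.111, or 1.51-fold lower (adjusted p = 0.00105). The adjusted p stayed between 0.000261 and 0.0074 in the fits without 1 library.

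*Jag1* had 62, 57 and 55 counts with vehicle and 27, 36 and 33 with PTH, again with no overlap, as for 15.4% of all genes tested. Its level went from 3.09 ± 0.269 to 1.78 ± 0.264 CPM, a log2 fold change of -0.80 ± 0.22, or 1.74-fold lower (adjusted p = 0.02). Its log2 fold change stayed between -0.90 and -0.68 in the fits without 1 library, but the call was not kept in all of them. It was lost without PTH library 1 (adjusted p = 0.0888), without PTH library 3 (0.0517) and without vehicle library 1 (0.0825), and over all alternatives the adjusted p ranged from 0.0119 to 0.0888.

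*Notch2* had 2337, 2553 and 2077 counts with vehicle and 1643, 2258 and 2101 with PTH (log2 fold change -0.15 ± 0.105, adjusted p = 0.422), and its groups overlapped. *Notch4* had 64, 67 and 75 counts with vehicle and 39, 45 and 43 with PTH, and no PTH library reached a vehicle library, as for 15.4% of all genes tested. The endothelial markers summed to 7.19 to 8.26 CPM with PTH in these cells, below their sums with vehicle given above. None of the 5 tested was called with PTH here by edgeR, with 4 log2 fold changes negative and 1 positive. The most abundant, *Cdh5*, had -0.45 (adjusted p = 0.0909). The part of these markers in the *Notch4* values was not tested. The log2 fold change of *Notch4*, -0.64 ± 0.232, missed the threshold (adjusted p = 0.0837), and it was called when the 6 Y428F libraries were fitted alone (adjusted p = 0.0322) or when at least 10 counts were required in every library (0.0353), with a range of 0.0322 to 0.242 over all alternatives. *Notch1*, with 11, 0 and 3 counts against 5, 1 and 0, and *Dll1*, with 4, 3 and 3 counts against 3, 0 and 0, were not called (adjusted p = 0.588 and 0.402).

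*Hes1* had 13, 9 and 5 counts with vehicle and 17, 26 and 22 with PTH in Y428F cells. It was at 0.48 ± 0.221 CPM with vehicle and 1.20 ± 0.258 CPM with PTH, and every PTH library lay above every vehicle library, as for 15.5% of all genes tested. Its log2 fold change of 1.32 ± 0.478 did not pass (adjusted p = 0.0818), but did in the fit of the Y428F libraries alone (adjusted p = 0.0367, and 0.0367 to 0.261 over all alternatives for this line). Since both lines gave log2 fold changes of this kind, the response averaged over both lines was tested after these values were seen. For *Hes1* it was 1.50 ± 0.373, or 2.82-fold higher (adjusted p = 0.00538), and 23.2% of all genes were called in this comparison. Because these same values prompted the test, it does not make *Hes1* a call in either line. As a ratio of summed counts, PTH to vehicle was 3.28 (1.67 to 6.93) in WT cells and 2.51 (1.58 to 4.09) in Y428F cells, with 95% intervals for counting error only.

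*Hey1* had 2, 4 and 0 counts with vehicle and 4, 0 and 1 with PTH in Y428F cells (adjusted p = 0.955), and *Hey2* had 3, 4 and 12 against 2, 6 and 12 (adjusted p = 0.956). No effector gene was called in Y428F cells by edgeR or by DESeq2, which again gave no adjusted p for the 3, and 1 had an unadjusted p under 0.05 with edgeR, *Hes1*.

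**Figure D2:**
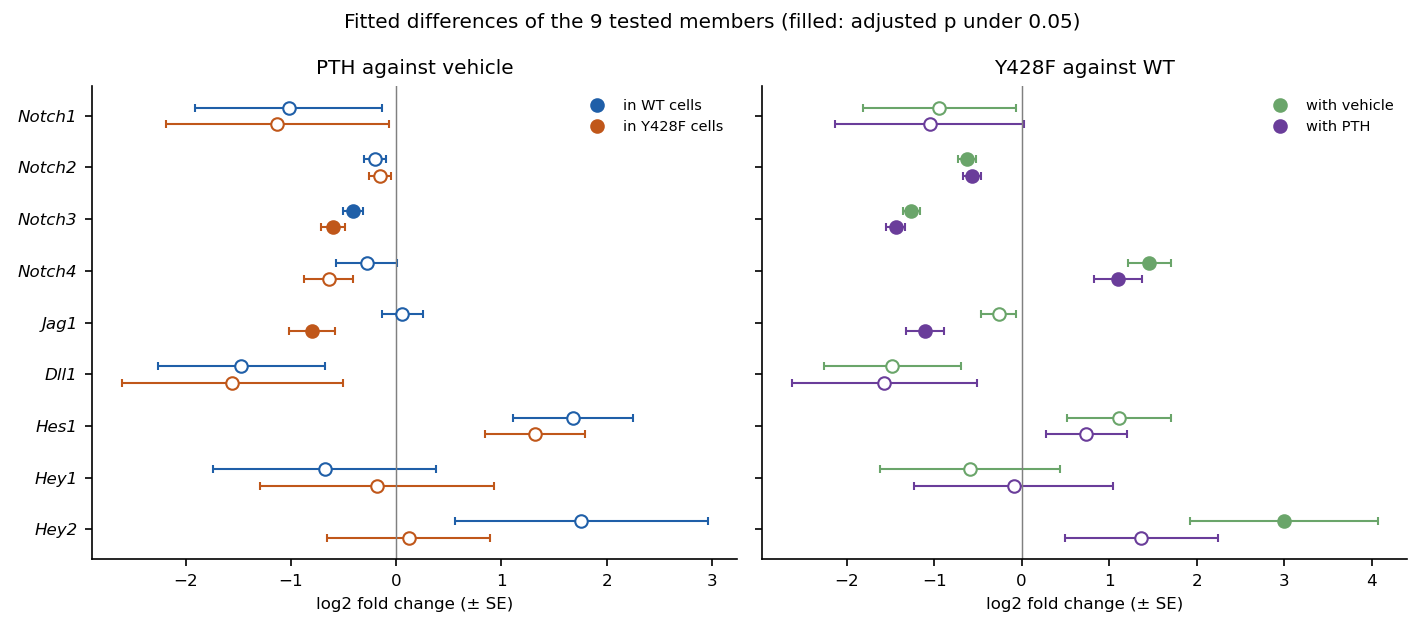
Log2 fold changes ± SE (edgeR, 12 libraries) of the 9 tested genes for PTH against vehicle (left) and for Y428F against WT cells (right). Filled symbols have an adjusted p under 0.05. *Notch3* is the only gene filled in all 4 comparisons, and the SE of *Notch1*, *Dll1*, *Hey1* and *Hey2* is between 0.774 and 1.2.

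Whether the response to PTH differed between the lines was tested directly as an interaction. Of the 9 genes none was called, against 0.413% of all genes (73 of 17691, 0.17% with a higher and 0.243% with a lower value in Y428F cells), by edgeR or by DESeq2, which gave no adjusted p for 4 of them. With edgeR, 1 of the 9 had an unadjusted p under 0.05. That gene was *Jag1*, whose response in Y428F cells minus that in WT cells was -0.86 ± 0.296 on the log2 scale (unadjusted p = 0.00905, adjusted p = 0.429). *Jag1* thus passed the threshold in Y428F cells and not in WT cells without being shown to differ between them. The difference for *Notch3* was -0.19 ± 0.148 (adjusted p = 0.874) and that for *Hes1* was -0.36 ± 0.736 (adjusted p = 0.97).

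The lines themselves differed more than the treatments did. With vehicle, 45.1% of all genes were called between Y428F and WT cells (22.4% higher and 22.7% lower in Y428F cells), and of the 9 genes 2 were lower, *Notch2* and *Notch3*, and 2 were higher, *Notch4* and *Hey2*. With PTH, 45.7% of all genes were called (22.8% higher and 23.0% lower), and of the 9 genes 3 were lower, *Notch2*, *Notch3* and *Jag1*, and 1 was higher, *Notch4*. Both shares, 44.4%, are close to those of all genes. The filter of at least 10 counts was passed by *Hey2* only through Y428F cells, the line in which it was called higher. Chromosomes differed in their medians as well. Among genes averaging 4 CPM or more, the median log2 fold change with vehicle was -0.17 on chromosome 3 (*Notch2*, 530 genes). It was 0.25 on chromosome 10 (*Hey2*, 489 genes), -0.08 on chromosome 17 (*Notch3*, *Notch4*) and -0.06 on chromosome 2 (*Jag1*). With PTH these medians were -0.17, 0.26, -0.09 and -0.06. The medians over all genes tested were 0.01 and 0.02. The part of these shifts in the calls was not tested.

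*Notch3* was 2.39-fold lower in Y428F cells with vehicle (log2 fold change -1.26 ± 0.101, adjusted p = 2.22e-09) and 2.72-fold lower with PTH (-1.44 ± 0.108, adjusted p = 6.98e-10). No Y428F library, at 12.1 to 21.9 CPM, came near the WT libraries, at 33.9 to 54.4 CPM, and 26.3% of all genes had all Y428F libraries below all WT libraries under either treatment. *Notch2* was lower too, with a log2 fold change of -0.62 ± 0.104 with vehicle (adjusted p = 4.44e-05) and -0.57 ± 0.105 with PTH (adjusted p = 0.000124). Its level was 123 ± 8.74 CPM in Y428F cells with vehicle and 111 ± 18.2 CPM with PTH.

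Because *Notch2* and *Notch3* did not move by the same amount, the ratio of their counts is given for each library as a description. It was 0.279, 0.27 and 0.251 in WT cells with vehicle and 0.229, 0.243 and 0.214 with PTH. In Y428F cells it was 0.171, 0.159 and 0.184 with vehicle and 0.133, 0.11 and 0.136 with PTH. The 4 groups did not overlap, and the ratio was lowest where both the Y428F line and PTH were present. A ratio shows that the 2 genes differed in their change, not that either was unchanged.

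**Figure D3:**
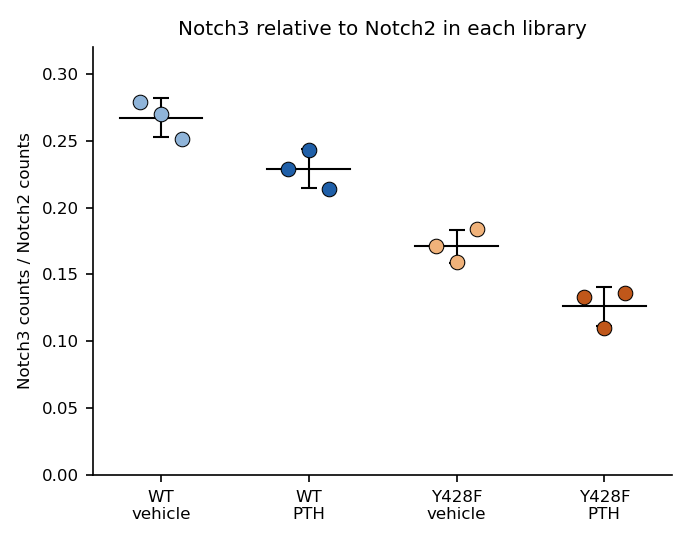
Ratio of *Notch3* to *Notch2* counts in each library (points), with the group mean (line) and ± SD (bar, n = 3), on an axis that starts at 0. The means are 0.267, 0.229, 0.171 and 0.126 from WT cells with vehicle to Y428F cells with PTH.

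*Notch4* (ENSMUSG00000015468.15, chr17:34783220-34807477, plus strand) went the other way. It was at 1.33 ± 0.147 CPM in WT cells and 3.66 ± 0.38 CPM in Y428F cells with vehicle, 2.75-fold higher (log2 fold change 1.46 ± 0.249, adjusted p = 5.45e-05). With PTH it was at 1.1 ± 0.445 and 2.35 ± 0.182 CPM, 2.14-fold higher (log2 fold change 1.10 ± 0.271, adjusted p = 0.00211). Of the endothelial genes, *Cdh5* was higher in Y428F cells (log2 fold change 3.28 with vehicle and 3.48 with PTH, adjusted p = 1.13e-10 and 3.28e-10) and *Vwf* was lower (-1.01 and -0.75, adjusted p = 0.00427 and 0.0359), while *Pecam1* had at most 0.303 CPM in any library, and the part of such markers in the *Notch4* values was not tested.

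*Jag1* was not called between the lines with vehicle (log2 fold change -0.26 ± 0.2, adjusted p = 0.324), but was 2.16-fold lower in Y428F cells with PTH (-1.11 ± 0.217, adjusted p = 0.000233). This comparison and that of PTH in Y428F cells share the 3 PTH libraries of Y428F cells, which had the lowest *Jag1* levels of all, 1.5, 2.02 and 1.82 CPM. *Hey2*, the HEY repressor best known from arteries and heart, had 2 counts in all in WT cells with vehicle and 19 in Y428F cells, of which 12 were in vehicle library 3. The ratio was 9.29 with a 95% interval of 2.24 to 82.3 for counting error only, and the call (adjusted p = 0.0262) was lost without WT vehicle library 1 (0.0852), WT vehicle library 2 (0.0871) or Y428F vehicle library 3 (0.173), with a range of 0.011 to 0.173 over all alternatives. With PTH the counts were 7 and 20 in all (adjusted p = 0.221). *Hes1* was not called between the lines with vehicle (log2 fold change 1.11 ± 0.596, adjusted p = 0.143) or with PTH (0.74 ± 0.461, adjusted p = 0.203). Without WT vehicle library 2 its difference with vehicle was 2.1 (adjusted p = 0.0225, and 0.0225 to 0.435 over all alternatives).

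*Notch1*, *Dll1* and *Hey1* were not called between the lines. Their summed counts with vehicle were 27, 28 and 9 in WT cells and 14, 10 and 6 in Y428F cells. With PTH they were 12, 9 and 5 against 6, 3 and 5. The ratio for *Dll1* with vehicle was 0.349, with a 95% interval of 0.151 to 0.741 for counting error only, but the 3 libraries of each group overlapped (adjusted p = 0.134). Without Y428F PTH library 1, which held all 3 counts of its group, the remaining Y428F PTH libraries had 0 counts of *Dll1* and it was called lower with PTH (adjusted p = 0.0294, and 0.0294 to 0.479 over all alternatives).

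The other genes of the pathway were taken from 9 lists with 76 genes, of which 67 were tested. With PTH, 3 of them rose and 8 fell in WT cells (16.4%, against 13.4% of all genes), and 3 rose and 10 fell in Y428F cells (19.4%, against 12.4%). Their median log2 fold changes were -0.02 and -0.04, against -0.02 and -0.01 over all genes. Between the lines, 14 were higher and 29 lower in Y428F cells with vehicle (64.2%, against 45.1% of all genes), and 13 were higher and 25 lower with PTH (56.7%, against 45.7%). The shares of all genes given here hold for the counts of each list below as well.

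Among the ligands outside the 10 genes, *Jag2* fell with PTH in both lines. It had 37, 58 and 48 counts with vehicle and 18, 22 and 21 with PTH in WT cells, and 38, 40 and 41 against 13, 19 and 16 in Y428F cells, with no overlap in either line (as for 13.2% and 15.4% of all genes tested in this direction). Its log2 fold changes were -1.10 ± 0.262 (adjusted p = 0.00725) and -1.24 ± 0.276 (adjusted p = 0.00466), and the former was lost without vehicle library 2 (-0.89, adjusted p = 0.0548). *Jag2*, which encodes Jagged2, lay below the mean of 2 CPM set for naming genes and was chosen after its values were seen. Of the other canonical ligands it was the 1 called of 2 tested in each line, and between the lines neither was called by edgeR or DESeq2 or had an unadjusted p under 0.05 with edgeR. Of 4 non-canonical ligands tested, *Dlk2*, a homolog of the adipogenesis inhibitor *Dlk1*, rose in WT cells (1.26 ± 0.334, adjusted p = 0.0147) and in Y428F cells none was called by edgeR or by DESeq2, which gave no adjusted p for 2 of them, and 0 had an unadjusted p under 0.05 with edgeR. *Dlk2* reached the mean of 2 CPM through Y428F cells, and in WT cells it had 24 counts in all with vehicle and 53 with PTH. The call for *Dlk2* was lost without PTH library 1 (0.161), vehicle library 2 (0.0636) or vehicle library 3 (0.0601). With vehicle *Dlk2* was at 0.433 ± 0.13 CPM in WT cells against 5.64 ± 0.39 CPM in Y428F cells (log2 fold change 3.67, adjusted p = 2.74e-10). In that comparison 3 of the 4 were higher in Y428F cells, against 22.4% of all genes. *Mfap5*, a microfibril protein, was among them (0.55, adjusted p = 0.0109), and its call was lost without WT vehicle library 2 (0.0605) or Y428F vehicle library 3 (0.0794). The third lay below the mean of 2 CPM set for naming genes. With PTH, *Dlk2* alone of the 4 was higher in Y428F cells (2.68, adjusted p = 3.04e-09).

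The Fringe glycosyltransferases set which ligands a receptor prefers. None of the 5 genes of glycosylation was called with PTH in WT cells by edgeR or by DESeq2, and 2 had an unadjusted p under 0.05 with edgeR. In Y428F cells 1 fell, *Mfng* (-0.89 ± 0.255, adjusted p = 0.0248), and that call was lost without PTH library 1 (0.111), PTH library 2 (0.0919), vehicle library 1 (0.117) or vehicle library 2 (0.0577). Between the lines 2 were higher and 1 was lower under either treatment (of all genes, 45.1% were called with vehicle and 45.7% with PTH). *Lfng* went from 4.66 ± 0.799 to 13.4 ± 0.435 CPM with vehicle (log2 fold change 1.53, adjusted p = 2.24e-09) and was also higher with PTH (1.50, adjusted p = 4.08e-09). *Pofut1*, the O-fucosyltransferase of the receptors, was higher by 0.28 and 0.21 (adjusted p = 0.000897 and 0.00865). *Poglut1*, the O-glucosyltransferase, was lower (-0.19 and -0.23, adjusted p = 0.0344 and 0.00967). With vehicle the call for *Poglut1* was lost without WT vehicle library 1 or 2 or any Y428F vehicle library, and with PTH without WT PTH library 3, with adjusted p between 0.0633 and 0.18.

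Of the 10 protease genes that cut the receptor, 1 fell with PTH in WT cells, the γ-secretase subunit gene *Aph1b* (-0.32 ± 0.0843, adjusted p = 0.0156), and its call was lost without PTH library 1 (0.0869), PTH library 2 (0.056) or vehicle library 1 (0.0549). None of the 10 was called in Y428F cells by edgeR or by DESeq2, which gave no adjusted p for 1 of them, and 0 had an unadjusted p under 0.05 with edgeR. Between the lines 6 were lower with vehicle and 5 with PTH, and none was higher (of all genes, 22.7% were lower with vehicle and 23.0% with PTH). Above a mean of 2 CPM the largest of these differences were those of the γ-secretase genes *Aph1a* (-0.55 with vehicle and -0.54 with PTH, adjusted p = 1.11e-08 and 1.28e-08) and *Ncstn* (-0.48 and -0.54, adjusted p = 1.35e-06 and 2.59e-07).

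The gene of the DNA-binding protein of the pathway, *Rbpj*, fell with PTH in both lines. In WT cells it had 4411, 4814 and 4963 counts in the vehicle libraries against 3435, 3260 and 3120 in the PTH libraries, a log2 fold change of -0.40 ± 0.0643 (adjusted p = 0.000199). In Y428F cells it had 5193, 5420 and 5066 against 4097, 4405 and 4482 (-0.21 ± 0.0638, adjusted p = 0.0334). The groups did not overlap in either line, as for 13.2% of all genes tested in WT cells and 15.4% in Y428F cells in this direction. In Y428F cells the call was lost without PTH library 1 or 3 or any vehicle library, with adjusted p between 0.0544 and 0.124. The test of the difference between the lines gave 0.19 ± 0.0905 (adjusted p = 0.695). *Rbpj* was the only gene called with PTH among the 8 tested of the nuclear complex. Between the lines 1 was higher and 5 were lower with vehicle, and 2 were higher and 5 were lower with PTH (of all genes, 45.1% and 45.7% were called). The Mastermind-like coactivator gene *Maml3* (-0.93 and -0.95, adjusted p = 1.05e-05 and 8.99e-06) and the acetyltransferase gene *Kat2b* (-0.59 and -0.69, adjusted p = 3.36e-07 and 3.72e-08) were lower. The acetyltransferase gene *Ep300* was higher (0.26 and 0.25, adjusted p = 0.016 and 0.0236), with calls lost without WT vehicle library 1 (0.0663) and, with PTH, without WT PTH library 1 (0.0863) or 3 (0.113) or Y428F PTH library 2 (0.13) or 3 (0.0968). *Rbpj* itself was higher in Y428F cells with PTH (0.30, adjusted p = 0.000551).

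Of 13 corepressor genes of RBPJ, 1 fell with PTH in WT cells, and 1 rose and 2 fell in Y428F cells. *Tle2*, a Groucho corepressor gene, fell in both lines (-0.47 ± 0.11 and -0.44 ± 0.118, adjusted p = 0.00616 and 0.0166), with calls lost in WT cells without vehicle library 2 (0.0502) and in Y428F cells without PTH library 1 (0.0993) or vehicle library 2 (0.0863). Its relative *Tle3* fell in Y428F cells (-0.34 ± 0.0677, adjusted p = 0.00175). *Tle4*, also a Groucho gene, went from 1.94 ± 0.106 to 4.2 ± 0.685 CPM in Y428F cells (1.12 ± 0.256, adjusted p = 0.00585), against 0.724 ± 0.0601 and 1.21 ± 0.611 CPM in WT cells (adjusted p = 0.179). It reached the mean of 2 CPM set for naming genes through the PTH libraries of Y428F cells, the group in which it was highest. Between the lines 5 were higher and 4 lower under either treatment (of all genes, 45.1% were called with vehicle and 45.7% with PTH). *Tle4* was higher (1.41 with vehicle and 1.79 with PTH, adjusted p = 0.000901 and 1.63e-05), as were the deacetylase gene *Hdac2* with vehicle (0.54, adjusted p = 1.43e-07) and the corepressor gene *Spen* with PTH (0.62, adjusted p = 3.9e-06). *Tle2* was lower (-0.73 and -0.70, adjusted p = 1.32e-05 and 4.28e-05), as were *Cir1* with vehicle (-0.51, adjusted p = 1.66e-05) and *Tle3* with PTH (-0.50, adjusted p = 3.05e-06).

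Of 13 tested regulators of ubiquitination and endocytosis, 1 rose and 2 fell in WT cells and 3 fell in Y428F cells. The inhibitor of Notch *Numb* rose in WT cells (0.31 ± 0.0805, adjusted p = 0.0129), a call lost without PTH library 2 (0.0593). The ubiquitin ligase gene *Mib2* fell in both lines (-0.26 ± 0.0743 and -0.31 ± 0.0778, adjusted p = 0.0237 and 0.0117), with calls lost in WT cells without PTH library 2 or 3 or vehicle library 2 or 3 (0.0661 to 0.0997) and in Y428F cells without vehicle library 1 (0.0763). The Deltex genes *Dtx4* in WT cells (-0.30 ± 0.0708, adjusted p = 0.00618) and *Dtx3* in Y428F cells (-0.30 ± 0.0709, adjusted p = 0.00723) fell as well, the former not without vehicle library 3 (0.0536). Between the lines 8 were lower under either treatment (of all genes, 22.7% with vehicle and 23.0% with PTH), with *Mib2* (-0.56 and -0.61, adjusted p = 2.86e-06 and 1.44e-06) and *Dtx4* (-0.53 and -0.50, adjusted p = 2.68e-06 and 7.78e-06) the largest above a mean of 2 CPM. None was higher with vehicle and 1 was with PTH, the ubiquitin ligase gene *Fbxw7* (0.39, adjusted p = 0.0135), a call lost without WT PTH library 3 (0.0516).

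*Bhlhe40*, a repressor gene related to the HES family and known from the circadian clock, was the 1 gene of the 67 whose response differed between the lines. That is 1.49% of them, against 0.413% of all genes. In WT cells it had 1042, 1075 and 1050 counts in the vehicle libraries against 1050, 1092 and 971 in the PTH libraries, which overlapped (log2 fold change 0.10 ± 0.0739, adjusted p = 0.423). In Y428F cells it had 741, 774 and 844 against 1188, 1228 and 1309, with no overlap, as for 15.5% of all genes tested (log2 fold change 0.72 ± 0.0747, adjusted p = 1.65e-06). The difference was 0.61 ± 0.105 (adjusted p = 0.00997). With vehicle *Bhlhe40* was lower in Y428F cells (-0.46, adjusted p = 3.72e-05), and with PTH it was not called between the lines (adjusted p = 0.0876). Of the 5 tested genes of this list, which were other HES genes and related repressors, none was called with PTH in WT cells by edgeR or DESeq2 (1 had an unadjusted p under 0.05 with edgeR, and DESeq2 gave no adjusted p for 2), and in Y428F cells *Hes6* fell besides (-0.52 ± 0.16, adjusted p = 0.0368), a call lost without any 1 of the PTH libraries or vehicle library 1 or 3 (0.0536 to 0.202). Between the lines 1 was higher and 2 were lower with vehicle, and 1 was lower with PTH (of all genes, 45.1% and 45.7% were called). *Bhlhe41*, its paralog, was lower both times (-1.54 and -1.08, adjusted p = 2.63e-09 and 4.25e-07).

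Of 7 other target genes tested, 1 rose and 2 fell in WT cells, and 1 rose and 1 fell in Y428F cells. The growth-promoting factor gene *Myc* rose in both lines (0.64 ± 0.0779 and 0.25 ± 0.0754, adjusted p = 9.24e-06 and 0.0348), in Y428F cells not without PTH library 2 (0.175) or vehicle library 1 (0.0968) or 2 (0.161). The cyclin gene *Ccnd1* fell slightly in both lines (-0.21 ± 0.0615 and -0.22 ± 0.0606, adjusted p = 0.026 and 0.0196), and those calls were lost in WT cells without PTH library 1 or 3 or vehicle library 2 or 3 (0.0574 to 0.116) and in Y428F cells without PTH library 1 or 3 or vehicle library 1 (0.0561 to 0.0859). The cell-cycle inhibitor gene *Cdkn1a* fell in WT cells (-0.67 ± 0.16, adjusted p = 0.00779). *Nrarp*, a feedback inhibitor gene that Notch induces in many cell types, had 8 counts in 1 PTH library of WT cells and 0 in the other 11 libraries, and was not tested. Between the lines 2 were higher and 3 lower with vehicle, and 2 were higher and 1 lower with PTH (of all genes, 45.1% and 45.7% were called). *Ccnd1* (0.93 and 0.92, adjusted p = 9.45e-11 and 1.19e-10) and, with vehicle, *Myc* (0.55, adjusted p = 6.08e-06) were higher. The chondrogenic factor gene *Sox9* (-1.58 and -1.28, adjusted p = 5.64e-11 and 1.13e-09) and, with vehicle, *Cdkn1a* (-0.59, adjusted p = 0.00385) were lower.

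**Figure D4:**
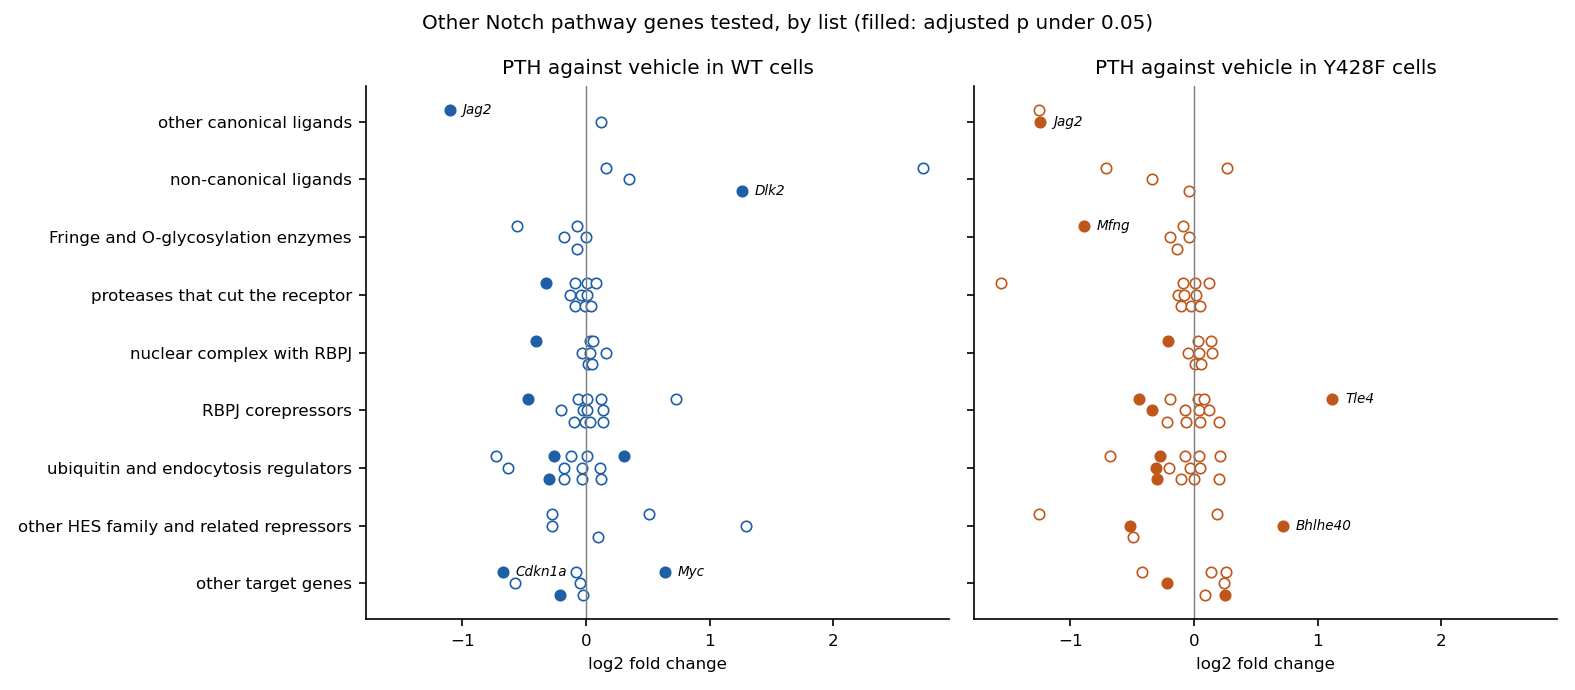
Log2 fold changes with PTH of the 67 tested genes of the 9 other Notch pathway lists, in WT cells (left) and Y428F cells (right). Each point is a gene (its height within a list only separates points), filled where the adjusted p is under 0.05. Genes called with a log2 fold change beyond 0.6 in either direction are named, and most points lie near 0.

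The genes whose log2 CPM followed a member most closely over the 12 libraries are given as a description. For *Notch2* they were *Sema5a* (r = 0.984), *Zfhx4* (0.984) and *Abl1* (0.982). For *Jag1* they were *Tle3* (r = 0.949), *Rpgrip1l* (0.947) and *Dhx35* (0.943), and for *Hes1* they were *Macir* (r = 0.93), *Prkaa1* (0.922) and *Brd2* (0.92). Only genes averaging 2 CPM or more were compared (11217 for *Notch2* and *Jag1*, 11218 for *Hes1*). The points share cell line, treatment and library, so a gene can rank high only because it differs between the lines or treatments.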

How the data were processed

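The 12 libraries (poly-A selected RNA of W-20 cells) were grouped by their titles. Reads were mapped by the authors with STAR 2.7.10b to GRCm39 with the GENCODE basic vM31 annotation, and the deposited values are RSEM expected counts per gene, not scaled for library size or length. The authors used DESeq2, and none of their results were used here. Whether counting used strand is not given in the sources used here. No row lacked a gene identifier, and 0 columns were left unmapped. By stable identifier, 56236 of 56980 genes were matched to GENCODE vM39 on GRCm39 for symbols, positions and canonical transcript lengths, and 744 were not. The number of replicates and a depth of 17127897 to 19057319 counts per library limit the precision of genes with few counts.

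For the tests, each expected count was rounded, and edgeR 4.0.16 under R 4.3.3 was used (glmQLFit and glmQLFTest, TMM, total of at least 10 counts, 4 groups, no block), with Benjamini-Hochberg adjustment over 17691 genes. Fold changes are edgeR's log2 fold changes ± SE. The SE was derived as the absolute log2 fold change divided by the square root of the test's F statistic. It is approximate for genes with few counts. Intervals of ratios of summed counts are exact binomial intervals at 95%. Libraries of the same group were not copies of each other, as their counts varied beyond sampling noise (chi-square per degree of freedom 2.87 to 14.2). Alternatives were DESeq2 1.42.0, scaling by its size factors or by library totals, other filters, stricter limits, each line alone, the replicate number as a block and each library left out in turn. The response averaged over both lines was added after the values were seen.

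All 10 genes were named in each comparison. Of each other pathway list, up to 2 genes in each direction were named, those with the largest log2 fold change among genes with an adjusted p under 0.05 and a mean of at least 2 CPM. The 3 genes most like the receptor, ligand and effector with the highest mean CPM were ranked by Pearson r of log2 CPM (prior count 2). The members and lists were chosen with earlier results of these data known.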

Additional observations from a re-analysis of the deposited data

Results flagged for a closer look

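*Bhlhe40* differed in its response to PTH between the lines by the test of the difference itself. The response in Y428F cells minus that in WT cells was 0.61 on the log2 scale (SE 0.105, adjusted p = 0.00997, edgeR). The difference ranged from 0.55 to 0.68 in the 12 fits without 1 library, with an adjusted p between 0.00485 and 0.0448, and over all alternatives the adjusted p lay between 1.39e-06 and 0.0448. *Bhlhe40* was higher with PTH in 3 of 3 Y428F libraries (as for 15.5% of all genes tested), whereas the WT groups overlapped. Of the 67 pathway genes tested it alone passed this test (1.49%, against 0.413% of all genes).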

How the results depend on the processing

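The directions of *Notch2*, *Notch3* and *Notch4* in the PTH and line comparisons and that of *Jag1* in Y428F cells and between the lines were the same under every alternative run, and the calls of *Notch3* in both PTH comparisons were kept. Changes of direction were met in genes with few counts or with fold changes near 0. The number of genes called with PTH fell to 1073 in WT cells and 942 in Y428F cells, and for the difference in response to 22, when the limits were an adjusted p of 0.01 and a log2 fold change of 0.3, and 1 member was then called in Y428F cells. For the difference in response, DESeq2 called 123 genes, and 216 were called with no filter on low counts. With no filter, 3 members were called in WT cells, since *Notch2* (adjusted p = 0.0176) and *Hes1* (0.0321) then passed, and 4 were called in the 6 Y428F libraries alone, where *Notch4* (0.0322) and *Hes1* (0.0367) passed. The response averaged over both lines was -0.37 for *Jag1* and was not called (adjusted p = 0.0826). That average combines 0.06 in WT cells with -0.80 in Y428F cells, so it does not bear on the call in Y428F cells. Of the other pathway genes named, *Dlk2* (0.112), *Ccnd1* (0.0692) and *Mib2* (0.0606) lost their calls in the 6 WT libraries alone, *Myc* in Y428F cells with library totals (0.0644), and *Poglut1* with library totals (0.167 with vehicle and 0.0779 with PTH) and, with vehicle, with DESeq2 (0.0528). The cause was not tested.

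In the fits that left out 1 library each, the genes called with PTH numbered 1591 to 2611 in WT cells and 1435 (without Y428F vehicle library 1) to 2515 in Y428F cells, those called for the difference 24 (without Y428F PTH library 3) to 89, and members called 1 to 2 in either line. Log2 fold changes that changed sign in these fits ranged from -0.06 to 0.27 for *Jag1* in WT cells, and in Y428F cells from -2.89 to 0.45 for *Notch1*, from -1.69 to 0.69 for *Hey1* and from -0.59 to 0.98 for *Hey2*. *Hey1* ranged from -1.62 to 0.44 between the lines with PTH. The differences in response ranged from -1.88 to 1.46 for *Notch1*, from -0.06 to 0.17 for *Notch2*, from -3.26 to 0.44 for *Dll1*, from -1.36 to 0.02 for *Hes1*, from -1.03 to 1.35 for *Hey1* and from -0.35 to 0.02 for *Jag2*. For *Dll1* the lowest value is a fitted one against a group left with 0 counts, and is not a bound. Other fold changes kept their sign but moved widely. With PTH in WT cells they ranged from 1.25 to 4.39 for *Hey2* and from -1.97 to -0.56 for *Notch1*. Between the lines with vehicle they ranged from 2.14 to 5.63 for *Hey2* and from -2.53 to -0.35 for *Notch1*. The highest values of *Hey2* are also fitted against a group left with 0 counts.

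Replicate numbers are shared across the groups, but same-numbered libraries did not deviate together (18 pairs, r from -0.031 to 0.037, mean 0.0019), so the numbers were not taken to pair them. The replicate block gave 0.19 for the difference in response of *Notch1*, against -0.11 without it, and changed no call of a member. Depth limits *Notch1*, *Dll1*, *Hes1*, *Hey1*, *Hey2* and *Heyl*, for which 1 count is a large part of a library's value.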

Other observations

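Markers of the lineages that W-20 cells can enter are given as values. *Pparg*, the master regulator of adipocytes, rose with PTH in both lines. It went from 31.7 ± 1.40 to 45.3 ± 4.36 CPM in WT cells (log2 fold change 0.51, adjusted p = 5.4e-05). In Y428F cells it went from 39.9 ± 0.862 to 65.0 ± 2.71 CPM (0.71, adjusted p = 9.62e-07). It was the 1 gene called of 5 adipocyte markers tested in each line, against 13.4% and 12.4% of all genes. *Adipoq*, the adiponectin gene of mature adipocytes, had 0 counts in all 12 libraries. *Cebpa*, which acts with *Pparg*, was at 46.1 ± 2.19 CPM in WT cells and 9.76 ± 0.66 CPM in Y428F cells with vehicle (log2 fold change -2.24, adjusted p = 3.37e-14). The adipocyte list did not go one way between the lines with vehicle, since *Fabp4* was lower as well in Y428F cells (-2.03, adjusted p = 8.67e-11) and *Pparg* (0.33, adjusted p = 0.000835) and *Lpl* (0.15, adjusted p = 0.0496) were higher. *Runx2*, the transcription factor gene that commits cells to osteoblasts, was at 90.2 ± 7.06 and 86.7 ± 2.42 CPM in WT cells without and with PTH, and at 73.2 ± 1.10 and 78.1 ± 6.73 CPM in Y428F cells, and was not called with PTH in either line (adjusted p = 0.665 and 0.456). *Runx2* had a lower level in Y428F cells with vehicle (-0.30 against WT cells, adjusted p = 0.000919), as did *Spp1*, the osteopontin gene and most abundant osteoblast marker, under both treatments (-0.65 and -0.52, adjusted p = 8.56e-08 and 1.92e-06). *Bglap*, the osteocalcin gene of mature osteoblasts, had 2 counts in 1 library and 0 in the rest. The adjusted p-values are from edgeR over all genes tested.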
